A study of Homo sapiens with 13 samples.

Results

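The genes of the heterogeneous nuclear ribonucleoproteins (hnRNPs) and of the serine/arginine-rich (SR) splicing factors were examined for PTBP1 and RUNX1 peaks in MOLM-13 cells. The group was set by name as 34 protein-coding genes of GENCODE version 44, out of 20033 such genes on chromosomes 1 to 22, X and Y. It held the 20 genes whose symbols start with HNRNP and 14 SR genes, which were SRSF1 to SRSF12, TRA2A and TRA2B. For each gene, every peak within 1 kb of the transcription start site (TSS), taken as the 5-prime end of the annotated gene, was collected, and so was every peak elsewhere in the gene body.

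SR proteins carry RNA recognition motifs and a domain rich in arginine and serine, and they mostly promote the use of exons by binding enhancer sequences within them. The hnRNPs coat nascent transcripts and often act against SR proteins by silencing splice sites, and PTBP1 is itself an hnRNP, known as hnRNP I, that binds pyrimidine-rich RNA. Many genes of both families control their own expression through exons that send the transcript to nonsense-mediated decay. RUNX1, a transcription factor needed to form blood stem cells, contacts DNA with its Runt domain.

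MOLM-13 cells are a long-used human line from acute myeloid leukemia, and all 13 libraries came from them without a further treatment given in the labels. Antibodies against PTBP1 and RUNX1 were each used in 2 biological replicates of CUT&Tag, in which a tethered transposase cuts near the bound protein, and in 2 of CUT&RUN, in which a tethered nuclease does so. H3K27me3 and IgG were profiled in 2 CUT&RUN libraries each, and IgG in 1 CUT&Tag library. The measurements used here were 1 list of 9370 PTBP1 peaks and 1 list of 7688 RUNX1 peaks on the hg38 build. Neither list holds replicates, so no spread and no test can be given, and every comparison below is a description of these lists. The antibodies report where a protein sits on or near chromatin, and cannot tell contact with DNA from contact with nascent RNA or a partner protein.

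The height of each peak is given as fold enrichment, the ratio of fragments at the summit to the background with 1 added to each. The number of fragments at each summit was worked out from this ratio and the significance of the peak. The background was 0.72 fragments at most PTBP1 peaks and 0.33 at most RUNX1 peaks, and the lowest summits held 11 and 8 fragments. Fold enrichment is therefore compared within a list only, and the place of a peak in its own list is used to compare lists.

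A PTBP1 peak marked the TSS in 24 of the 34 genes, a RUNX1 peak did so in 22, and 21 genes had both. Among all protein-coding genes, 26.4% had a PTBP1 peak, 21.3% a RUNX1 peak and 17.3% both. The hnRNP genes carried most of these peaks, with PTBP1 at 18 of 20, RUNX1 at 16 and both at 16. Of the 14 SR genes, 6 had a PTBP1 peak, 6 a RUNX1 peak and 5 both. The share with both peaks was thus 80.0% among hnRNP genes and 35.7% among SR genes, and this difference was not tested. A PTBP1 peak without a RUNX1 peak was found at HNRNPH2, HNRNPM and TRA2B, against 9.05% of all protein-coding genes. SRSF3 was the single gene with a RUNX1 peak alone, a class that held 3.98% of all protein-coding genes. HNRNPA0, HNRNPH1, SRSF4, SRSF5, SRSF7, SRSF8, SRSF11, SRSF12 and TRA2A, 9 genes in all, had neither peak at the TSS, whereas 69.7% of all protein-coding genes had neither.

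**Figure D1:**
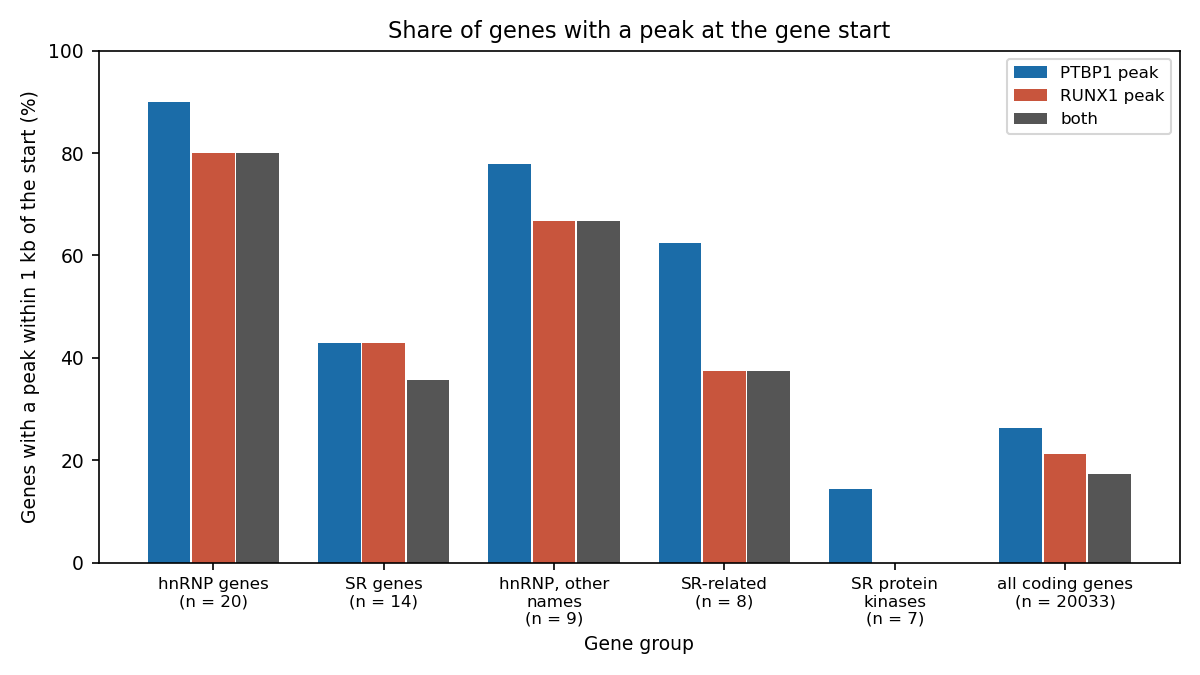
Percentage of genes (y axis) with a PTBP1 peak, a RUNX1 peak or both within 1 kb of the gene start, for the hnRNP and SR genes, for related genes of the same pathway and for all 20033 protein-coding genes (x axis). The bar for both peaks stands at 80.0% for hnRNP genes and 35.7% for SR genes, against 17.3% for all genes.

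The annotated 5-prime end of a gene is not always where its main transcript begins. In 6 of the 34 genes the start of the canonical transcript, the isoform chosen by Ensembl to represent the gene, lay over 1 kb from it. By the canonical start, PTBP1 peaks were found at 25 genes and RUNX1 peaks at 24, with both at 22 and neither at 7. The same rule gave 27.5%, 22.4%, 18.2% and 68.2% of all protein-coding genes. HNRNPH1, SRSF5 and SRSF11 gained peaks by this rule, and SRSF9 lost both of its peaks. The family counts moved little, with both peaks at 17 of 20 hnRNP genes and 5 of 14 SR genes.

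The PTBP1 peaks at these TSSs had a higher median than those at protein-coding TSSs at large, and the RUNX1 medians lay closer together. The median fold enrichment of the strongest PTBP1 peak was 23.5 over the 24 genes that had one, against 15.7 over all 5281 protein-coding genes with a PTBP1 peak. With genes lacking a peak counted at 0, the medians were 14.8 over the 34 genes and 0 over all protein-coding genes. For RUNX1 the medians were 18.0 over 22 genes and 15.8 over 4266 genes, and 11.7 and 0 with zeros counted. Without genes that have another protein-coding TSS within 1 kb, the medians were 21.8 over 16 genes against 15.1 over all 3601 such genes for PTBP1, and 15.8 over 15 against 15.0 over 2967 for RUNX1. Of the 24 PTBP1 peaks, 9 were in the top 10% of their list, as were 15.6% of all PTBP1 peaks at protein-coding TSSs. Of the 22 RUNX1 peaks, 3 were in the top 10%, beside 10.7% of all RUNX1 peaks at protein-coding TSSs. Within the group, the median of the strongest PTBP1 peak was 27.9 over 18 hnRNP genes and 14.2 over 6 SR genes, and for RUNX1 it was 19.5 over 16 and 14.3 over 6.

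**Figure D2:**
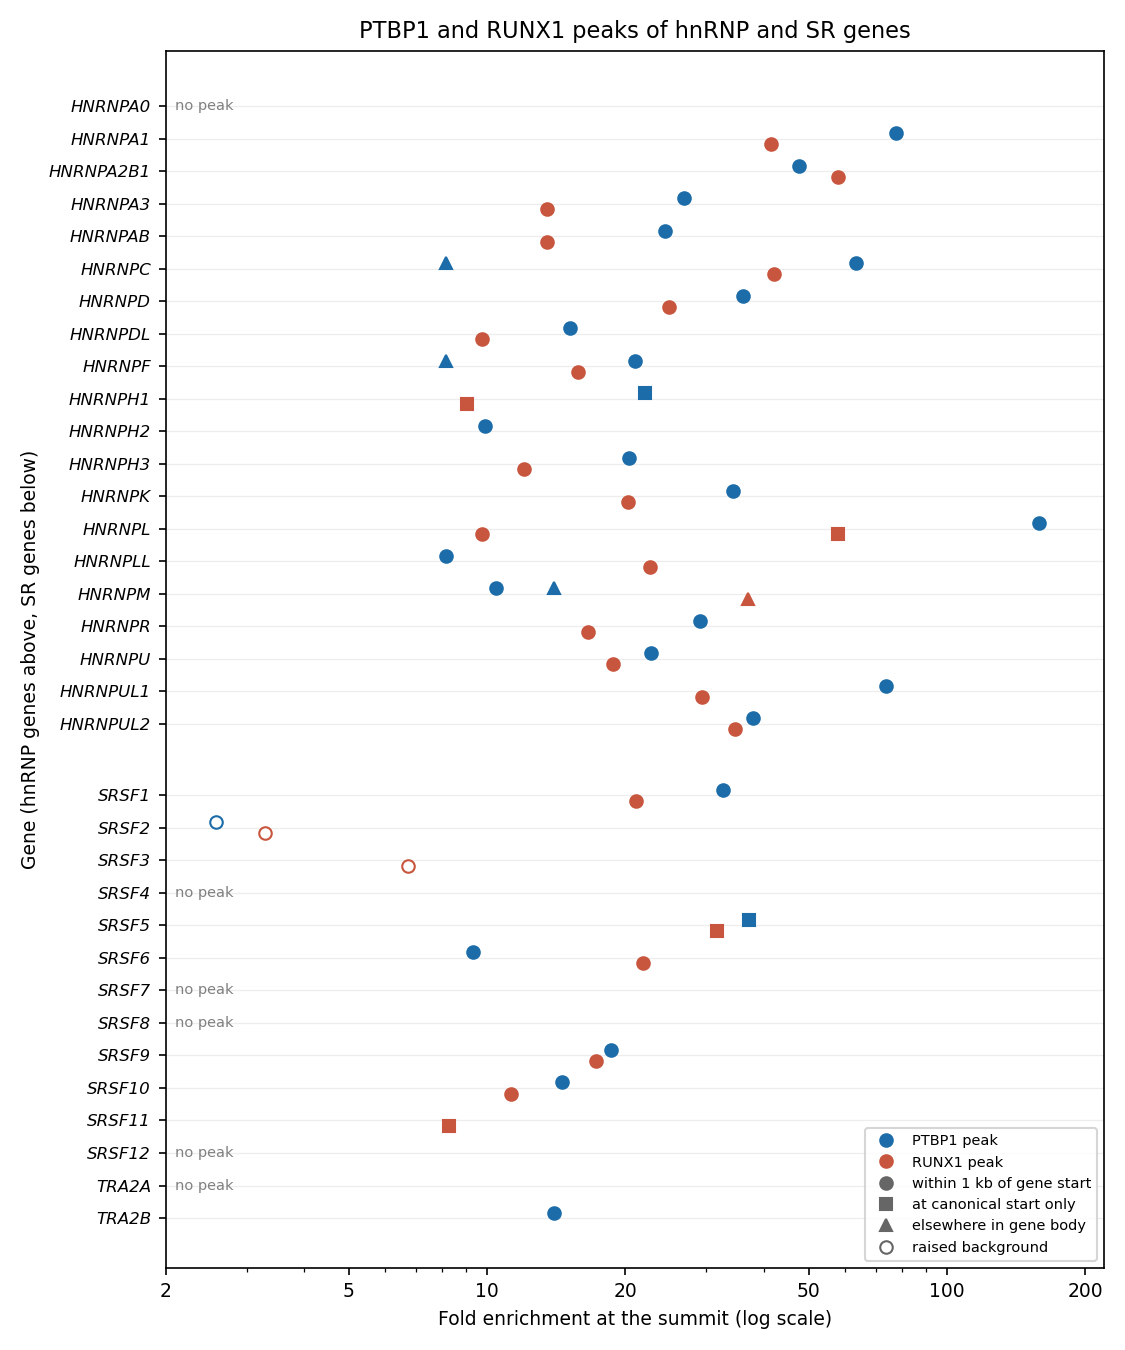
Fold enrichment at the summit (x axis, log scale) of every PTBP1 and RUNX1 peak of the 34 genes (y axis). Circles are peaks within 1 kb of the gene start, squares are peaks at the canonical start only, triangles are other gene-body peaks and open symbols mark a raised background. The PTBP1 peak of HNRNPL is the tallest at 159, and HNRNPA0, SRSF4, SRSF7, SRSF8, SRSF12 and TRA2A have no peak.

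The tallest PTBP1 peak of the group was at HNRNPL, which encodes a regulator that binds CA-rich RNA. It spanned chr19:38849346-38852651, a width of 3306 bases, and reached a fold enrichment of 159 from 272 fragments. It ranked 17 of 9370 peaks in the PTBP1 list. This peak covered both the annotated gene start and the canonical start, which lies 2361 bases downstream of it, and its summit was 441 bases upstream of the canonical start. RUNX1 had a pair of separate peaks under the same PTBP1 peak. The taller, at chr19:38849446-38851313, had a fold enrichment of 57.9 from 76 fragments and a summit 177 bases upstream of the canonical start. The weaker, at chr19:38851710-38852231, had a fold enrichment of 9.77 from 12 fragments and lay at the annotated gene start. The rule by gene start thus assigned the weaker RUNX1 peak to the TSS and the taller to the gene body.

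HNRNPA1, HNRNPUL1, HNRNPC and HNRNPA2B1 followed in the PTBP1 list. HNRNPA1, an exon silencer that shares its start region with the divergent gene CBX5, had a PTBP1 fold enrichment of 77.3 from 132 fragments at chr12:54279419-54280997. Its RUNX1 peak reached 41.4 from 54 fragments, and the RUNX1 summit lay 649 bases upstream of the PTBP1 summit, on the side of CBX5. HNRNPUL1, a relative of HNRNPU linked to the DNA damage response, had a PTBP1 fold enrichment of 73.8 from 126 fragments at chr19:41262427-41264994 and a RUNX1 fold enrichment of 29.3 from 38 fragments. Its summits were 3 bases apart, the closest pair of the group. HNRNPC, which binds uridine-rich RNA and keeps cryptic exons out of transcripts, had 63.4 from 108 fragments for PTBP1 and 42.1 from 55 fragments for RUNX1, in peaks at chr14:21269203-21270453 and chr14:21269457-21270232.

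HNRNPA2B1, a paralog of HNRNPA1 that shares its start region with CBX3, was the only member of these 5 that stood higher in the RUNX1 list than in the PTBP1 list. Its PTBP1 fold enrichment was 47.7 from 81 fragments at chr7:26200245-26202245, with 95.6% of the list below it. Its RUNX1 fold enrichment was 57.9 from 76 fragments at chr7:26200477-26201977, with 96.0% of the list below it. The 5 tallest RUNX1 peaks at a TSS were, in order, at HNRNPA2B1, HNRNPC, HNRNPA1, HNRNPUL2 and HNRNPUL1. That of HNRNPUL2 had a fold enrichment of 34.6 from 45 fragments. HNRNPUL2, which shares its start region with TTC9C, had a PTBP1 fold enrichment of 37.8 from 64 fragments.

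The bases under the summits show what lay at the tallest of these peaks. Windows reaching 50 bases either side of the summit are given on the strand of the gene for the tallest peaks at the TSS and for the RUNX1 peaks whose window holds a RUNX motif, and the windows of HNRNPA1 for PTBP1 and HNRNPA2B1 for RUNX1 are left out because they lie in untranslated exon sequence. Capitals mark CCAAT, or its reverse complement ATTGG, and the RUNX motif, written here as TGTGGT or TGCGGT with the reverse complements ACCACA and ACCGCA.
HNRNPL, PTBP1 summit, chr19:38850377-38850477, minus strand: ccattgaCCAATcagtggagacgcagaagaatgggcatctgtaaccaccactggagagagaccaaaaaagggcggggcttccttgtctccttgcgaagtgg
HNRNPUL1, PTBP1 summit, chr19:41263919-41264019, plus strand: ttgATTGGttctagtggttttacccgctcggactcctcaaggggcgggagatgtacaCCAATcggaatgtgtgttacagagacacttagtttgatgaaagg
HNRNPA1, RUNX1 summit, chr12:54279818-54279918, plus strand: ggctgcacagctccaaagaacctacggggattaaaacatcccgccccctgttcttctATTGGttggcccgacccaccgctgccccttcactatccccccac
HNRNPC, RUNX1 summit, chr14:21269737-21269837, minus strand: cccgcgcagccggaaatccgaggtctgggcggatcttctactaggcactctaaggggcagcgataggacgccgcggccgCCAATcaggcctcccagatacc
HNRNPL, RUNX1 summit, chr19:38851958-38852058, minus strand: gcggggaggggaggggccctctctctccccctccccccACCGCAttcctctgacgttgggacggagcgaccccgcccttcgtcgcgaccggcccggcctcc
HNRNPM, RUNX1 summit, chr19:8487516-8487616, plus strand: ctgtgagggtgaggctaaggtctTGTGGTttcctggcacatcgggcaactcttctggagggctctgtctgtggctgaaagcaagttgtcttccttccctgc

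The first 4 windows each hold CCAAT, the letters recognised by the transcription factor NF-Y, and none of these 4 holds a RUNX motif. The HNRNPUL1 window holds CCAAT in both orientations. The windows of HNRNPL and HNRNPM for RUNX1 hold ACCGCA and TGTGGT, centred 9.5 and 24.5 bases from the summit.

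CCAAT was counted at all summits after it had been seen in these windows, so its counts are a description. It lay within 50 bases of 10 of the 24 PTBP1 summits at the TSSs of the group, against 16.8% of all 4490 PTBP1 summits at protein-coding TSSs. It lay within 50 bases of 8 of the 22 RUNX1 summits, against 16.7% of 3558. Among peaks in the top 10% of their list the letters were at 6 of 9 PTBP1 summits of the group against 26.5% of 702, and at 3 of 3 RUNX1 summits against 21.9% of 379. All 5 of the tallest PTBP1 peaks held CCAAT, and so did 4 of the 5 tallest RUNX1 peaks. These counts, like those in the top 10%, include windows in which the letters were first seen. No share over all genes was worked out for the 5 tallest. The PTBP1 and RUNX1 counts are not separate, because the same letters can fall in overlapping windows of both lists. At HNRNPUL1, HNRNPK and HNRNPA2B1 the summits were 3, 19 and 35 bases apart, and CCAAT was in each window. By family, 9 of 18 PTBP1 summits at hnRNP genes and 1 of 6 at SR genes held it. The SR gene was SRSF9.

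The RUNX motif was under few of these peaks, in counts too small to set the group apart. It lay within 50 bases of 1 of 24 PTBP1 summits, at HNRNPR, where the background was 6.90%, and of 1 of 22 RUNX1 summits, at HNRNPL, where the background was 13.0%. Within 100 bases it was at 4 of 24 PTBP1 summits against 13.5%, and at 3 of 22 RUNX1 summits against 22.1%. The motif at HNRNPL belonged to the weaker RUNX1 peak, and the window of its taller RUNX1 peak, like those of the 5 tallest at a TSS, held none. Stretches of 12 or more pyrimidines in a row, on either strand, resemble what PTBP1 binds in RNA and were at 4 of 24 PTBP1 summits against 14.3%, and at 3 of 22 RUNX1 summits against 15.6%. The median GC content of the windows was 62.4% at PTBP1 summits of the group and 68.3% at all PTBP1 summits at protein-coding TSSs. For RUNX1 it was 65.3% and 69.3%. A match to these short words is a description of the letters and not evidence of binding.

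The other 15 genes with both peaks at the TSS, leaving aside the 5 of highest PTBP1 fold enrichment and SRSF2, were HNRNPA3, HNRNPAB, HNRNPD, HNRNPDL, HNRNPF, HNRNPH3, HNRNPK, HNRNPLL, HNRNPR, HNRNPU, HNRNPUL2, SRSF1, SRSF6, SRSF9 and SRSF10. Their PTBP1 fold enrichment ran from 8.14 at HNRNPLL to 37.8 at HNRNPUL2, and their RUNX1 fold enrichment from 9.77 at HNRNPDL to 34.6 at HNRNPUL2. HNRNPK, which binds cytosine-rich RNA and DNA and shares its start region with RMI1, had 34.3 from 58 fragments for PTBP1 and 20.3 from 26 for RUNX1. HNRNPD, which binds AU-rich elements and marks messages for decay, had 36.0 from 61 fragments and 24.8 from 32. HNRNPU, a scaffold protein that binds chromatin and RNA, had 22.7 from 38 fragments and 18.8 from 24. Both of its summits lay in intron 1, 1299 and 1191 bases downstream of the canonical start. They were 138 and 246 bases upstream of the start of another annotated HNRNPU transcript.

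HNRNPLL and SRSF6 stood out from the other genes with both peaks in that their PTBP1 peaks were low in the PTBP1 list and their RUNX1 peaks high in the RUNX1 list. HNRNPLL, a paralog of HNRNPL known for splicing of CD45 in lymphocytes, had a PTBP1 fold enrichment of 8.14 from 13 fragments, with 7.94% of the list below it, and a RUNX1 fold enrichment of 22.6 from 29 fragments, with 73.4% below it. SRSF6 had 9.30 from 15 fragments with 21.2% below it and 21.8 from 28 fragments with 71.8% below it. In the opposite direction, 17 of the 21 genes with both peaks stood further up the PTBP1 list than the RUNX1 list, as did 73.2% of all 3469 protein-coding genes with both. HNRNPL was the most unequal of them by the gene start rule, but its taller RUNX1 peak at the canonical start had 96.0% of the RUNX1 list below it.

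Spearman's rho between PTBP1 and RUNX1 fold enrichment was 0.52 across the 21 genes with both and 0.56 across all 3469. These are correlations across genes, which are not independent replicates, and both lists share the cell line and the mappable sequence of each promoter.

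**Figure D3:**
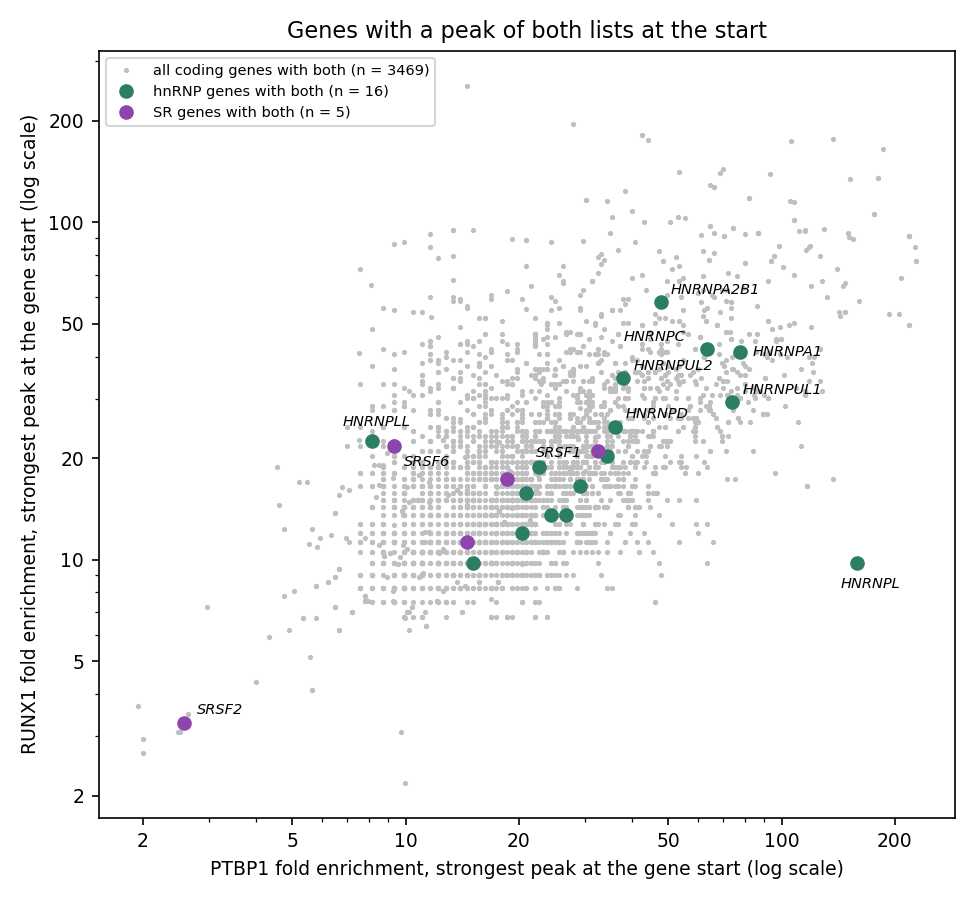
PTBP1 fold enrichment (x axis, log scale) against RUNX1 fold enrichment (y axis, log scale) of the strongest peak at the gene start, for 16 hnRNP genes, 5 SR genes and all 3469 protein-coding genes with both (grey). HNRNPA1, HNRNPA2B1, HNRNPC and HNRNPUL1 lie towards the upper right, HNRNPL lies far right at 159 and 9.77, and SRSF2 lies at the lower left.

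The 3 genes with PTBP1 alone at the TSS had low to middling PTBP1 peaks. HNRNPH2, an X-linked paralog of HNRNPH1 that shares its start region with GLA, had a PTBP1 fold enrichment of 9.88 from 16 fragments at chrX:101407967-101408481. HNRNPM had 10.5 from 17 fragments at chr19:8444878-8445255, in the 5-prime UTR of exon 1. TRA2B, which binds purine-rich exonic enhancers, had 14.0 from 23 fragments at chr3:185937524-185938250, with the summit on the first base of the canonical transcript. These heights leave 27.7%, 34.1% and 58.7% of the PTBP1 list below them, and a RUNX1 peak too weak to pass the threshold cannot be told apart from an absent peak.

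Among the SR genes, SRSF1 had the tallest PTBP1 peak at the annotated gene start and SRSF6 the tallest RUNX1 peak, with fold enrichments of 32.6 and 21.8. SRSF1, the founding member of the SR family, had 55 fragments at its PTBP1 summit and a RUNX1 fold enrichment of 21.1 from 27 fragments, with summits 17 bases apart. By the canonical start both were exceeded by SRSF5, whose PTBP1 peak at chr14:69766845-69767879 had 37.2 from 63 fragments and whose RUNX1 peak at chr14:69766858-69767942 had 31.6 from 41 fragments. SRSF10, a repressor that becomes active when dephosphorylated, had 14.5 from 24 fragments and 11.3 from 14 fragments, with summits 5 bases apart and 10 and 15 bases upstream of the canonical start.

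SRSF9 was unlike the others in where its peaks lay. Its PTBP1 peak had a fold enrichment of 18.6 from 31 fragments and its RUNX1 peak 17.3 from 22 fragments, both at the annotated gene start, where the noncoding gene NRAV also begins. The canonical start of SRSF9 lay 26198 bases downstream and had no peak of either list.

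SRSF2 and SRSF3 were the only genes of the group with peaks on a raised background, counted as over 1.5 times the usual level. SRSF2, which is recurrently mutated in myeloid neoplasms, had a PTBP1 fold enrichment of 2.58, because 78 fragments at the summit stood over a background of 29.7. Its RUNX1 fold enrichment was 3.29, from 181 fragments over a background of 54.4. Both peaks also came within 1 kb of the TSS of MFSD11, so they cannot be assigned to either gene. These peaks ranked 9361 of 9370 and 7672 of 7688 in their lists, although only HNRNPL, HNRNPA1, HNRNPUL1, HNRNPC and HNRNPA2B1 had more fragments at a PTBP1 summit and no gene of the group had more at a RUNX1 summit. SRSF3, the smallest SR protein, had a RUNX1 fold enrichment of 6.72 from 24 fragments over a background of 2.72, at chr6:36593820-36594240. Without peaks on a raised background the counts were 23 genes with PTBP1, 20 with RUNX1 and 20 with both.

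No peak of either list lay anywhere in HNRNPA0, SRSF4, SRSF7, SRSF8, SRSF12 or TRA2A. HNRNPA0 is an intronless relative of HNRNPA1, SRSF7 is a close paralog of SRSF3, SRSF8 is a close relative of SRSF2, and TRA2A is the paralog of TRA2B. TRA2B thus had a PTBP1 peak and TRA2A none, while neither had a RUNX1 peak. HNRNPA1 had both peaks, in a start region shared with CBX5, and HNRNPA0 had none. GC content differed among the promoters of the genes without peaks, and a link to the lack of peaks was not tested. TRA2A had no promoter entry. The 300-base promoters of HNRNPA0, SRSF4 and SRSF12 had a GC content of 70.3%, 74.7% and 77.0% with 36, 48 and 37 CpG dinucleotides, whereas those of SRSF7 and SRSF8 had 55.0% and 36.0% with 17 and 3. The lowest summits in the lists held 11 fragments for PTBP1 and 8 for RUNX1. Occupancy too weak to be called a peak at these genes cannot be told apart from none.

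Of the 10 peaks in gene bodies away from the annotated TSS, 6 lay at the canonical start of the same gene. They were the pairs of HNRNPH1 and SRSF5 and the RUNX1 peaks of HNRNPL and SRSF11. HNRNPH1, a regulator that binds G-rich RNA, had PTBP1 at chr5:179622875-179624635 with 22.1 from 37 fragments and RUNX1 at chr5:179623413-179624035 with 9.02 from 11 fragments, at a canonical start 11113 bases downstream of the annotated gene start. SRSF11 had a RUNX1 peak of 8.27 from 10 fragments at chr1:70221443-70221778, at a canonical start 15698 bases downstream.

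The other 4 gene-body peaks were in HNRNPC, HNRNPF and HNRNPM. HNRNPC had a PTBP1 peak of 8.14 from 13 fragments in intron 2, at chr14:21244749-21245039, and this was the only gene-body peak over 1 kb from every annotated transcript start of its gene. Its window also held TGTGGT. HNRNPF, a paralog of HNRNPH1, had a PTBP1 peak of 8.14 from 13 fragments in intron 1, at chr10:43396874-43397301, with its summit 14 bases from the start of another annotated transcript.

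HNRNPM had the tallest gene-body peaks away from a canonical start. Its PTBP1 peak there was taller than the PTBP1 peak at its own TSS, which had a fold enrichment of 10.5. In intron 15, a RUNX1 peak of 36.8 from 48 fragments at chr19:8487464-8488214 overlapped a PTBP1 peak of 14.0 from 23 fragments at chr19:8487489-8487933. The summits were 52 bases apart and lay 264 and 316 bases from the start of an internal annotated transcript. The RUNX1 window here is the HNRNPM sequence printed above with TGTGGT in capitals. HNRNPM was thus a gene with PTBP1 alone at its TSS and with both proteins inside the gene.

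Gene-body peaks were found in 5 of the 34 genes for PTBP1 and in 5 for RUNX1, against 12.4% and 11.5% of all protein-coding genes, shares near the background. Per length of gene, there were 6.69 peaks per Mb for each protein, against 3.13 for PTBP1 and 2.25 for RUNX1 over all protein-coding genes. At a canonical start were 2 of the 5 PTBP1 and 4 of the 5 RUNX1 gene-body peaks, so these densities mix start sites with introns.

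Of the peaks at the TSSs of the group, 21 of 24 PTBP1 peaks overlapped a RUNX1 peak and 21 of 22 RUNX1 peaks overlapped a PTBP1 peak. At all protein-coding TSSs the shares were 63.9% and 79.9%. Where both peaks lay at a TSS they overlapped in 21 of 21 genes of the group and in 99.6% of all 3469 protein-coding genes with both, so overlap itself did not set the group apart. The summits of the 21 pairs were a median of 92 bases apart, from 3 bases at HNRNPUL1 to 1581 at HNRNPL, and the median over all 2851 overlapping pairs at protein-coding TSSs was 79 bases. The HNRNPL pair used the weaker RUNX1 peak, and the summit of its taller RUNX1 peak was 264 bases from the PTBP1 summit. Of the 21 pairs, 11 had summits within 100 bases, as did 57.0% of all pairs. The pairs of HNRNPK, SRSF1, SRSF10 and HNRNPUL1 had summits within 20 bases. Those of HNRNPA1, HNRNPDL and SRSF2 were 649, 529 and 457 bases apart.

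Summits lay mostly upstream of the canonical start. The strongest PTBP1 peak had its summit upstream in 17 of 25 genes, a median of 162 bases upstream, and the strongest RUNX1 peak in 18 of 24 genes, a median of 167.5 bases upstream. Over all protein-coding genes the medians were 121 and 104 bases upstream, with 70.2% and 68.2% of summits upstream. The summits farthest downstream were those of HNRNPU for both proteins. The median width of the peaks at the TSS was 806 bases for PTBP1 and 731 for RUNX1, against 742 and 718 at all protein-coding TSSs.

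**Figure D4:**
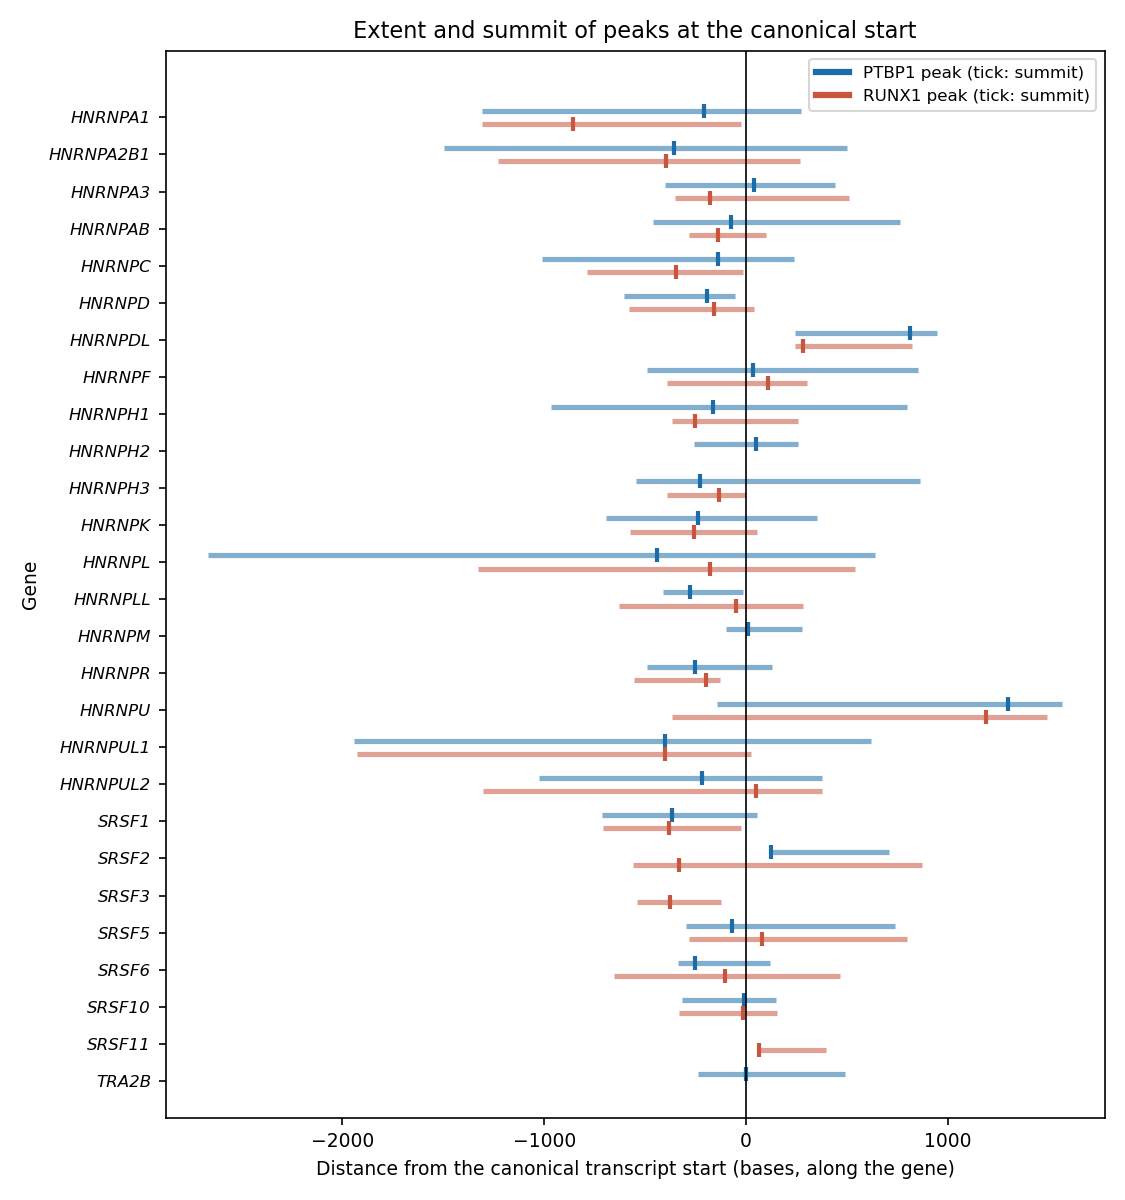
Extent (bars) and summit (ticks) of PTBP1 and RUNX1 peaks within 1 kb of the canonical start of each gene, plotted along the gene in bases from that start (x axis, negative values upstream) for the genes that have such a peak (y axis). The PTBP1 summits have a median of 162 bases upstream of the start. Both HNRNPU summits sit over 1 kb inside the gene, near the start of another annotated transcript.

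Of the 34 genes, 10 had the TSS of another protein-coding gene within 1 kb, and at these a peak cannot be assigned to either gene. Both peaks were found at 7 of these 10 and at 14 of the other 24 genes. Among these 14, the peaks of SRSF2 and HNRNPH3 also came within 1 kb of the TSSs of MFSD11 and PBLD. Over all protein-coding genes, 17.4% shared their start region in this way, and both peaks were at 32.5% of those and 14.1% of the others.

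Promoter sequences from RefSeq (GRCh38.p14, 250 bases before to 50 after the start) were matched for 31 of the 34 genes. HNRNPA1, SRSF2 and TRA2A had no entry. Each motif was searched on both strands beside the same search of 15344 coding promoters. The E-box CACGTG was in 7 of 31 promoters, or 22.6%, against 8.89% of all. These were HNRNPA3, HNRNPD, HNRNPDL, HNRNPH2, HNRNPH3, HNRNPM and HNRNPUL1, which is 7 of 19 hnRNP promoters and 0 of 12 SR promoters. CCAAT was in 15 of 31 promoters, or 48.4%, against 36.6%, with 13 of 19 hnRNP and 2 of 12 SR promoters. The SP/KLF word GGGCGG was in 21, or 67.7%, against 59.2%, the ETS word CCGGAAG in 5, or 16.1%, against 14.4%, and the RUNX motif in 5, or 16.1%, against 18.7%. The NRF1 word GCATGCGC was in 1 promoter, against 4.25% of all, and the CREB/ATF word TGACGTCA and the YY1 word AAGATGGC were in 0, against 2.64% and 3.97%. The median promoter of the group had a GC content of 65.0% and 30 CpG dinucleotides, against 63.0% and 22. For SRSF9 the RefSeq promoter is at the canonical start, away from its peaks, and for HNRNPH1, HNRNPL and HNRNPUL1 it is over 1 kb from the canonical start.

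Exons of transcripts annotated for nonsense-mediated decay that overlap no exon of the canonical transcript were also compared with the peaks. Exons that lead to decay are how many of these genes limit their own protein. The exons compared here were not checked against other coding transcripts, so some may also belong to those. At HNRNPK and HNRNPL, an exon overlapped by a peak begins at the RefSeq start site. The annotation held 57 of them in 21 of the genes, counted by distinct coordinates, so overlapping variants of an exon count separately. PTBP1 peaks overlapped 5 and RUNX1 peaks overlapped 3, at HNRNPH1, HNRNPK, HNRNPL and SRSF9 for PTBP1 and at HNRNPK and SRSF9 for RUNX1. The 2 overlapped at HNRNPK are variants of the same exon. The same count over other genes was not made. All of the overlaps in the group were with peaks at a start site, and no summit lay in such an exon. The 11 exons of HNRNPA2B1, 9 of HNRNPU, 5 of SRSF4, 4 of SRSF7, 4 of SRSF11, 3 of SRSF3 and 2 of TRA2A had no peak of either list. For SRSF4, SRSF7 and TRA2A this was fixed in advance, because these genes had no peak anywhere. SRSF3 and SRSF11 had only a RUNX1 peak at a start site.

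Of 26 further genes of the same pathway, 13 had a PTBP1 peak at the annotated TSS, 9 a RUNX1 peak and 9 both. The shares of all protein-coding genes were 26.4%, 21.3% and 17.3%. The 9 hnRNP proteins under other names resembled the hnRNP genes in their counts, with PTBP1 at 7 and RUNX1 at 6. Among them PTBP1, the gene of the profiled protein, had a PTBP1 fold enrichment of 110 and a RUNX1 fold enrichment of 25.6, and also 4 PTBP1 peaks in its gene body. SYNCRIP, also called hnRNP Q, had 79.1 and 63.9, and RALY, a relative of HNRNPC, had 76.2 and 69.2. Of 8 SR-related proteins, 5 had PTBP1 and 3 both, and U2AF2, which recognises the pyrimidine tract before an exon, had 95.9 and 18.0. Of 7 SR protein kinases, PTBP1 was at the TSS of CLK2 alone, with 19.2, and RUNX1 at none. By the canonical start CIRBP, SRRM1 and CLK3 gained both peaks. That rule gave PTBP1 at 16 of the 26 genes, RUNX1 at 12 and both at 12, against 27.5%, 22.4% and 18.2% of all protein-coding genes. Neither of the 2 import receptors, TNPO1 and TNPO3, had a peak.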

How the data were processed

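Peak lists for PTBP1 and RUNX1 in MOLM-13 cells were analysed. Per the study's methods and the submitters' processing notes, the authors trimmed reads with cutadapt, aligned them to hg38 with Bowtie2, removed duplicates with Picard, used SAMtools and bedtools 2.30.0, and ran MACS3 for peaks with a q-value cutoff of 1e-07. Each list is named by its target alone and was taken as CUT&Tag, for which peak calling is described. Whether replicates were pooled and which control was used in peak calling are not stated. The deposited fold enrichment is a ratio of pileup to background, each with 1 added. The deposited −log10 p-value and −log10 q-value rate that pileup under a Poisson model. The deposited columns also give the summit offset in bases.

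Whole fragments and a background were solved for each summit from its ratio and −log10 p-value, with a largest difference of 0.00134. Total library depth was not used here. Genes, canonical transcripts and exons came from GENCODE version 44 on hg38, with coordinates 1-based, and no peak ended past its chromosome. Windows of 50 bases either side of each summit were searched for TGTGGT or TGCGGT on both strands. The members and gene lists were chosen with earlier results of these data known, and counts are set beside those of all protein-coding genes with no test. All 34 genes were accounted for, with full values for those with gene-body peaks, a peak of 1 list or none at the TSS, and the 5 of highest fold enrichment in each list. Further genes were given values where the text describes them. Sequences were limited to the 3 tallest peaks of each list and RUNX1 windows with a RUNX motif, leaving out windows with over 30 bases in a UTR. CCAAT counts were added after the data were seen. On simulated data, 200 of 200 planted TSS peaks, 300 of 300 pileups and 500 of 500 motifs were recovered. The scripts used scipy 1.17.1, pandas 2.3.3, matplotlib 3.10.9 and numpy 2.4.6 in Python 3.11.15.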

Additional observations from a re-analysis of the deposited data

How the results depend on the processing

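Another definition of the TSS, a stricter significance, a matched fragment minimum or the removal of peaks on a raised background changed the counts of genes with PTBP1, RUNX1 or both by at most 1.5 times, with 18 to 26 genes for PTBP1, 15 to 26 for RUNX1 and 14 to 24 for both. Requiring summits at most 200 bases apart left 13 genes with both, instead of 21. Shares of all protein-coding genes are given for the annotated gene start and the canonical start only. Under the other settings these counts describe the group alone, and the contrast with all genes was not examined. The 10 gene-body peaks became 6 at a −log10 q-value of at least 15 and 1 when peaks within 1 kb of any annotated transcript start were left out. With genes lacking a peak counted at 0, the median fold enrichment of the strongest peak moved from 23.5 to 14.8 for PTBP1 and from 18.0 to 11.7 for RUNX1, since those genes enter the median. With 100 bases either side of the summit, the RUNX motif was found at 4 PTBP1 and 3 RUNX1 summits instead of 1 each, beside 13.5% and 22.1% of summits at protein-coding TSSs, and with TGTGGT alone at 0 RUNX1 summits, beside 5.71%. The removal of peaks on a raised background and the medians at the canonical start were chosen after seeing the data. No paired analysis was possible because the lists carry no replicates and no result comes from a test.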
